A study of Mus musculus with 2 samples.

Results

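The miR-15/16 family is a set of microRNAs (miRNAs) that carry the same seed, AGCAGCA at bases 2 to 8 of the mature strand, and it was examined here in mouse liver. Members were the listed miRNAs whose names begin with miR-15a, miR-15b, miR-16, miR-195a, miR-497a or miR-322, with both arms of each hairpin taken. In full, the 5p strands among them are mmu-miR-16-5p, mmu-miR-15b-5p, mmu-miR-497a-5p, mmu-miR-195a-5p and mmu-miR-322-5p, and the 3p strands are mmu-miR-16-1-3p, mmu-miR-15b-3p and mmu-miR-195a-3p. The species prefix is left out below. This gave 8 of the 197 named miRNAs listed over the series, 7 of them in replicate 1 and 6 in replicate 2. The series holds 1 group of 2 replicate small RNA libraries of liver. The mice were wild type, of the strain C57BL/6, 2 to 3 months old and fed ad libitum, and no other genotype or treatment was analysed. The labels do not tie the replicates to individual mice, and the spread over them can be purely technical.

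A miRNA is cut from a hairpin in a longer primary transcript, and the hairpin can yield a 5p and a 3p strand. The seed pairs with sites in messenger RNAs and lowers their output. This family is known for repressing cyclins and other genes that drive entry into DNA replication, among them Ccnd1 and Ccne1, and the survival gene Bcl2. The Dleu2 locus, which holds the genes for miR-15a and 1 copy of miR-16, is best known for its loss in chronic lymphocytic leukaemia. In liver, members of the family have been studied for restraining hepatocyte division.

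The mature 5p strands are shown because the family is defined by them; letters are those of RefSeq on GRCm38.p6, with the seed in capitals.
miR-16-5p: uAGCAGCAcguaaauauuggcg
miR-15a-5p: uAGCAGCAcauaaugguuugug
miR-15b-5p: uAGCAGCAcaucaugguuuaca
miR-195a-5p: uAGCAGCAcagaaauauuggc
miR-497a-5p: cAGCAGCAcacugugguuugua
miR-322-5p: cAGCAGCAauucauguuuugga

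Outside the seed these strands differed widely, from 2 bases between miR-16-5p and miR-195a-5p to 11 between miR-16-5p and miR-497a-5p. The 2 differences between miR-16-5p and miR-195a-5p were G10A and U11G, counted from the 5′ end of the strand with the miR-16-5p base given before the position. RefSeq holds 10 mature names with this seed, and 5 of them were listed in at least 1 library, all of them members. No listed locus outside the family, named or not, had the seed AGCAGCA in either library.

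The genes lie at 4 places in the genome, all given here on GRCm38. Mir15a and Mir16-1 lie on the minus strand of chromosome 14 in an intron of the non-coding gene Dleu2. The start of miR-16-5p is 139 bases downstream of that of miR-15a-5p, and the strand spans chr14:61631936-61631957. Mir15b and Mir16-2 lie on the plus strand of chromosome 3 in an intron of Smc4, which encodes a condensin subunit, with miR-15b-5p at chr3:69009775-69009796 and the start of the Mir16-2 strand 143 bases further on. Mir497 and Mir195a lie on the plus strand of chromosome 11, where the authors' annotation calls the loci intergenic. The same label is given to the Mir16-1 arms in the Dleu2 intron, so it does not show that a non-coding host is absent. The 5p strands of Mir497 and Mir195a lie at chr11:70234730-70234751 and chr11:70235062-70235082, and the gene Mir497b overlaps Mir497 on the opposite strand. Mir322, the mouse counterpart of human miR-424, lies on the minus strand of chromosome X with miR-322-5p at chrX:53054306-53054327, in a transcript region that also holds Mir503 and Mir351.

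**Figure D1:**
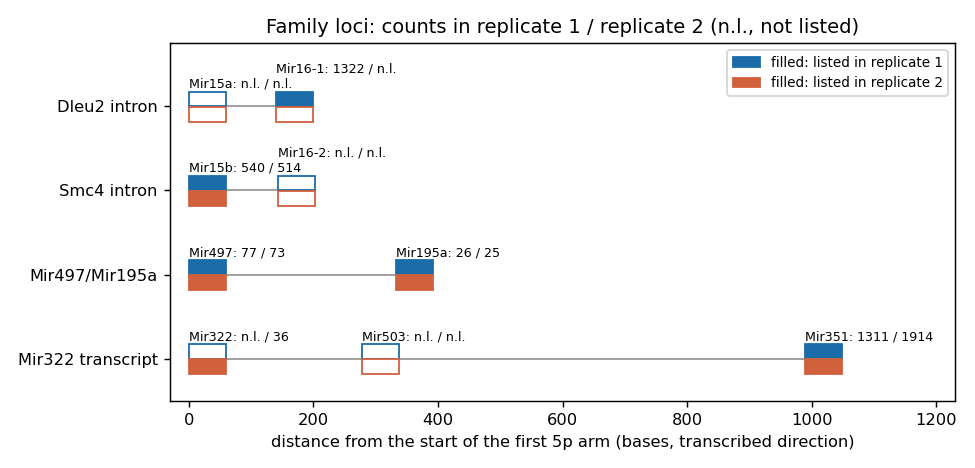
The 4 family loci, drawn by distance in bases from the start of the most upstream 5p strand, with boxes of 60 bases for hairpins and counts of both arms in replicate 1 and replicate 2, placed as in the authors' files. Filled boxes were listed and open ones were not: Mir15a, Mir16-2 and Mir503 were listed in neither library, Mir16-1 in replicate 1 only and Mir322 in replicate 2 only.

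The named miRNAs held 306351 counts in replicate 1 and 538023 in replicate 2, and levels are shares of these totals. Shares are not calibrated between miRNAs, and the 95% intervals (exact Clopper-Pearson) cover counting error only. All 3 hepatocyte markers looked for (miR-122-5p, miR-192-5p, miR-194-5p) were present in each library and together took 4.33% and 4.65% of counts, whereas 0 of 3 muscle markers were listed.

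The family as a whole was a minor part of the listed liver miRNAs. The 5 arms listed in both libraries held 643 counts in replicate 1 and 612 in replicate 2, or 0.210% and 0.114%, with a mean of 0.162% ± 0.0680 (SD, n = 2). Over every listed arm the family had 1965 and 648 counts, which were 0.641% and 0.120% of the respective library. These sums are over different arms, because miR-16-5p and miR-16-1-3p were listed in replicate 1 only and miR-322-5p in replicate 2 only, and they are not compared.

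miR-16-5p, the founding member with miR-15a of the Dleu2 cluster, had 1321 counts in replicate 1, which was 0.431% of that library (95% interval 0.408 to 0.455) and rank 26 of its 165 names. It outnumbered miR-15b-5p there by 2.45 to 1 (95% interval 2.22 to 2.71). Replicate 2 listed no strand of Mir16-1 or Mir16-2, although it was the deeper library, in which the same share would have given 2320 counts. Of the 26 names with at least 1321 counts in replicate 1, miR-16-5p was the only one that replicate 2 did not list. Because the files list called loci only, this sets no upper limit on miR-16-5p in replicate 2 and is not a count of 0.

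The mature miR-16-5p is encoded at both miR-16 hairpins, shown here from RefSeq with that strand in capitals.
Mir16-1: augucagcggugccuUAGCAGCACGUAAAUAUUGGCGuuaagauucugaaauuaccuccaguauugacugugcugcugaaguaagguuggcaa
Mir16-2: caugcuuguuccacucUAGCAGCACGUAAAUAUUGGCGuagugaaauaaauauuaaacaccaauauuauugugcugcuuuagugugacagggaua
The 22 letters of the mature strand are the same in both, so its 1321 counts cannot be divided between chromosomes 14 and 3, although the authors' file places all of them at Mir16-1. Only the 3p strands tell the hairpins apart. miR-16-1-3p had 1 count in replicate 1 and miR-16-2-3p was not listed in either library. No unnamed locus was listed within 1000 bases of either hairpin.

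miR-15b-5p was the most abundant member listed in both libraries. Its counts were 539 and 513, which made 0.176% of the shallower replicate 1 (95% interval 0.161 to 0.191) and 0.0953% of the deeper replicate 2 (0.0873 to 0.104), at ranks 41 and 44. Its mean was 0.136% ± 0.0570 (SD, n = 2). Its paralog miR-15a was listed in neither library, on either arm.

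miR-497a-5p and miR-195a-5p, products of 1 chromosome 11 cluster that is known from studies of cell cycle arrest in heart and muscle, were lower. miR-497a-5p had 77 and 73 counts, or 0.0251% and 0.0136%, with a mean of 0.0194% ± 0.00818 (SD, n = 2). miR-195a-5p had 23 and 18 counts, or 0.00751% and 0.00335%, with a mean of 0.00543% ± 0.00294 (SD, n = 2). Although the hairpins lie 332 bases apart, miR-497a-5p exceeded miR-195a-5p by 3.35 to 1 in replicate 1 (95% interval 2.08 to 5.59) and by 4.06 to 1 in replicate 2 (2.40 to 7.22).

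miR-322-5p, known from muscle differentiation and growth arrest, was listed in replicate 2 only, with 36 counts or 0.00669% (95% interval 0.00469 to 0.00926). At that share replicate 1 would have held 20.5 counts. Its neighbour miR-351-5p, which starts 989 bases downstream and has another seed, was far more abundant, with 1310 and 1914 counts. In replicate 2 miR-351-5p exceeded miR-322-5p by 53.2 to 1 (95% interval 38.3 to 76.1). Of the 5 miRNAs taken as neighbours on this transcript, miR-351 was listed, and miR-503, miR-542, miR-450a and miR-450b were not.

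**Figure D2:**
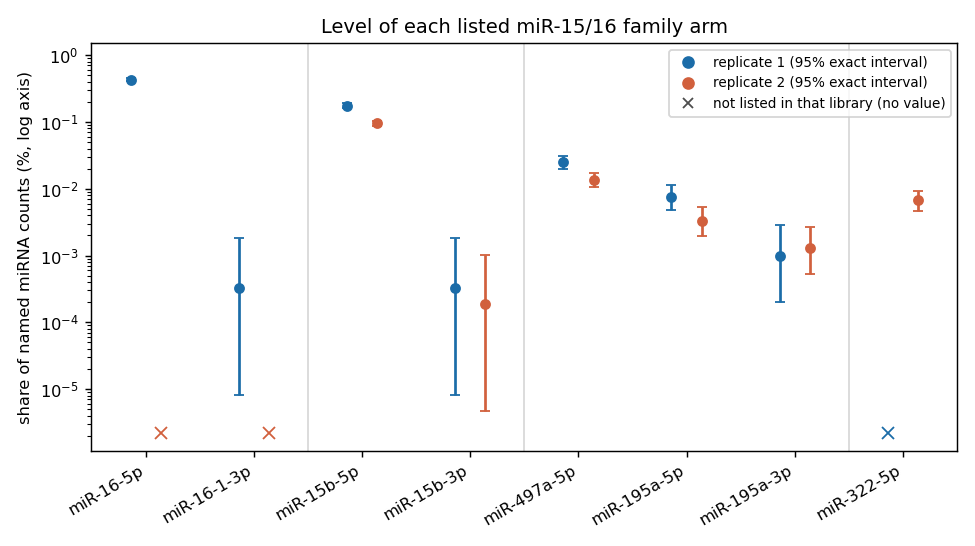
Share of named miRNA counts (percent, log axis) of each family arm in replicate 1 and replicate 2, with 95% exact intervals and with crosses for arms that a library did not list. The 5p strands span from 0.431% for miR-16-5p to 0.00335% for miR-195a-5p, and the 3p strands lie below them.

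In order of level, the 5p strands in replicate 1 ran from miR-16-5p through miR-15b-5p and miR-497a-5p to miR-195a-5p, and in replicate 2 from miR-15b-5p through miR-497a-5p and miR-322-5p to miR-195a-5p. Each neighbour in these orders was separated by more than counting error, the closest being miR-322-5p over miR-195a-5p at 2.00 to 1 (95% interval 1.11 to 3.74). The strands listed in both libraries did not overlap either: the lower value of miR-15b-5p, 0.0953%, lay above the higher value of miR-497a-5p, 0.0251%, and the lower value of miR-497a-5p above the higher value of miR-195a-5p. Among the 3p strands, neighbours could not be separated at this depth. miR-195a-3p had 3 and 7 counts and miR-15b-3p had 1 count in each library.

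The retained strand was the 5p arm. The 5p arm of Mir15b held 99.8% of its reads in replicate 1 (95% interval 98.97 to 99.995) and likewise 99.8% in replicate 2 (98.9 to 99.995). No arm share is given for Mir16-1, since its 5p counts may include Mir16-2. Mir195a kept more of its 3p arm, with 88.5% on 5p in replicate 1 (69.8 to 97.6) and 72.0% in replicate 2 (50.6 to 87.9), a mean of 80.2% ± 11.6 (SD, n = 2). Mir497 and Mir322 were listed with their 5p arms alone.

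Arm shares were compared between libraries by a 2-sided Fisher's exact test with Benjamini-Hochberg adjustment over the 47 hairpins with both arms listed, of which 8.51% passed. Mir15b (adjusted p = 1.00) and Mir195a (adjusted p = 0.603) did not pass, and with 26 and 25 counts Mir195a had little power. Of the 47 hairpins, 20 had most counts on 5p in both libraries, among them Mir15b and Mir195a.

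The strands the authors listed followed the RefSeq ends closely at the 5′ side. All 13 member entries over both libraries began at the RefSeq base, as did 88.3% and 89.5% of all 5p entries and 92.4% and 90.4% of all 3p entries in replicate 1 and replicate 2, so the seeds were those shown above. The 3′ ends varied more. miR-497a-5p was listed 1 base shorter than RefSeq in both libraries, and miR-195a-5p was 1 base longer in replicate 1 and of RefSeq length in replicate 2. Each of the 5 entries of 3p members ended 2 bases early, but they were only 3 arms, of at most 7 counts in a library. Of all 3p entries, 33 of 66 and 36 of 73 were shorter than RefSeq by any number of bases. Arms this few and this low do not set the family apart.

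The hairpin letters in the authors' files were less stable than the arms. Mir497 is shown because it differed between the libraries; capitals mark bases that differ from RefSeq, and in the RefSeq line the bases that differ in replicate 1.
RefSeq: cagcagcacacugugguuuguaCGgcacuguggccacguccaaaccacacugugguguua
Replicate 1: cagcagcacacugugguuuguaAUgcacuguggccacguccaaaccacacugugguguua
Replicate 2: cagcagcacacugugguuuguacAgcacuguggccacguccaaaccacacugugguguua
Counted from the first base of the listed hairpin, with the RefSeq base given before the position, these differences were C23A and G24U in replicate 1 and G24A in replicate 2. Mir15b differed by C25U in replicate 1 and not in replicate 2, Mir322 by G23U, and Mir16-1 not at all. Mir195a differed by U23A, G24U and C59U in replicate 1 and by U23G in replicate 2. In every family hairpin compared, the listed arm itself matched RefSeq and the differences lay outside it. Of these, C59U of Mir195a lay within the RefSeq span of miR-195a-3p, past the early end of its listed entry. Over all hairpins, differences at any base were found in 75.8% of 91 in replicate 1 and 77.0% of 100 in replicate 2. The family had them in 3 of 4 hairpins in each. A difference within the listed arm was found in 14 of the 91 and 18 of the 100, so a matching arm was usual. No source used here says how the authors derived the hairpin letters. In the structures given with them, 38 of the 60 bases of Mir497 were paired in replicate 1 and 42 in replicate 2.

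The libraries were then compared with each other, over the 131 miRNAs that both listed with at least 10 counts summed. Each miRNA was tested by a 2-sided exact binomial test, with library sizes scaled by TMM and p-values adjusted by Benjamini-Hochberg over the whole table. The test compares these 2 libraries, not conditions. It takes each read as an independent molecule, so its p-values, like the intervals, cover counting error only and not the spread that PCR or library preparation adds. Log2 ratios are replicate 2 to replicate 1. Of the 8 family arms, 4 could be tested, 3 were listed in 1 library and miR-15b-3p had too few counts.

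miR-15b-5p and miR-497a-5p were lower in replicate 2, and by almost the same factor. miR-15b-5p had a log2 ratio of -0.72 (95% interval -0.90 to -0.54; exact binomial test, adjusted p = 4.2e-15). miR-497a-5p had a log2 ratio of -0.73 (-1.21 to -0.25; exact binomial test, adjusted p = 0.00658). miR-195a-5p had a log2 ratio of -0.99 (-1.98 to -0.05) and missed the threshold (exact binomial test, adjusted p = 0.0759), and miR-195a-3p had 0.45 (-1.56 to 3.16; adjusted p = 0.877 by the same exact test). Thus 2 of 4 arms were called, both lower, where 44.3% of all tested miRNAs were called in either direction, 22.9% lower and 21.4% higher. Calls were more frequent at higher counts. Both called arms had at least 100 counts summed, and of the 87 tested miRNAs with that many, 27 were lower and 24 higher. The median log2 ratio of the 4 arms was -0.72, against -0.03 for all 131 miRNAs. miR-195a-5p, miR-497a-5p and miR-15b-5p stood 6, 12 and 13 from the bottom of the 131 ratios.

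When library totals replaced TMM, the median of all miRNAs moved to -0.19, 3 members were called lower and miR-195a-5p passed (log2 ratio -1.16, exact binomial test, adjusted p = 0.0299). In bulk tissue, fewer cells of a type and less RNA per cell cannot be told apart. Among the hepatocyte markers, miR-122-5p was higher in replicate 2 (log2 ratio 0.44, exact binomial test, adjusted p = 8.0e-112). The ratios of miR-194-5p (0.01) and miR-192-5p (-0.02) missed the threshold. Some markers of other cell types also differed between the libraries. Such differences were common, as 44.3% of all 131 tested miRNAs were called in either direction. Of 4 mesenchymal markers 3 were listed in each, with 0.554% and 0.333% of counts summed. Of these, miR-145a-5p was lower in replicate 2 (log2 ratio -1.24, exact binomial test, adjusted p = 6.3e-71), whereas miR-143-3p (0.12) and miR-214-3p (0.31) did not pass. The 1 of 5 immune markers listed, miR-150-5p, was lower in replicate 2, with 0.311% and 0.197% (log2 ratio -0.50, exact binomial test, adjusted p = 1.1e-13). Both endothelial markers, with 0.0444% and 0.0355% summed, did not pass. The 1 of 3 biliary markers listed, miR-200b-3p, was higher in replicate 2, with 0.0196% and 0.0303% (log2 ratio 0.79, exact binomial test, adjusted p = 0.000641). Of 4 erythroid markers, none was listed in replicate 1 and 1 in replicate 2. Their part in the result was not tested.

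**Figure D3:**
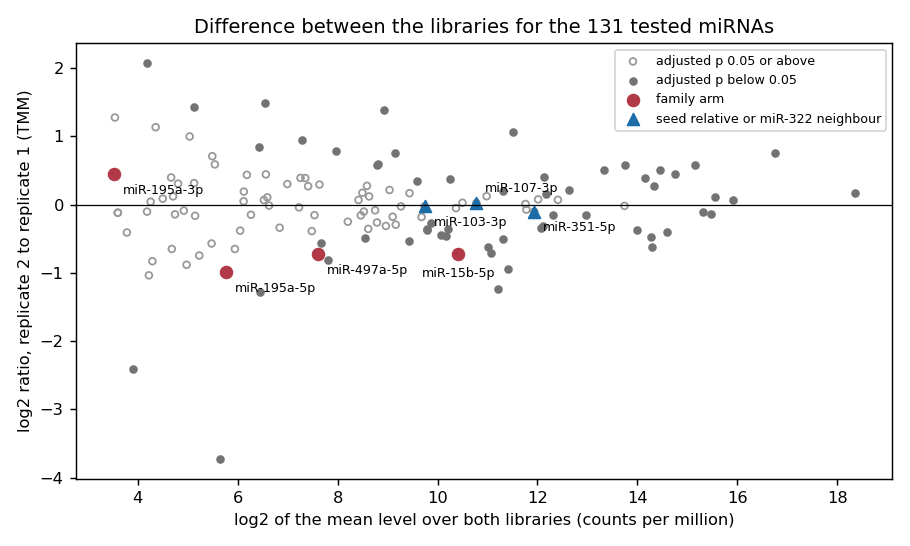
Log2 ratio of replicate 2 to replicate 1 (TMM) against log2 of the mean level (CPM) for the 131 tested miRNAs, with family arms in red and miR-103-3p, miR-107-3p and miR-351-5p as triangles. miR-15b-5p and miR-497a-5p lie at -0.72 and -0.73 and miR-195a-5p at -0.99, while the triangles lie near 0.

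The make-up of the family among arms listed in both libraries was nearly the same in each. miR-15b-5p took 83.8% of them in replicate 1 (95% interval 80.7 to 86.6), and its share in replicate 2 was 83.8% (80.7 to 86.7). miR-497a-5p took 12.0% (9.57 to 14.7) and 11.9% (9.47 to 14.8), and miR-195a-5p 3.58% (2.28 to 5.32) and 2.94% (1.75 to 4.61). Shares over all listed arms rest on different arms in each library: miR-16-5p took 67.2% of the family in replicate 1 (65.1 to 69.3), so that miR-15b-5p took 27.4% there and 79.2% in replicate 2, where miR-16-5p was not listed.

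**Figure D4:**
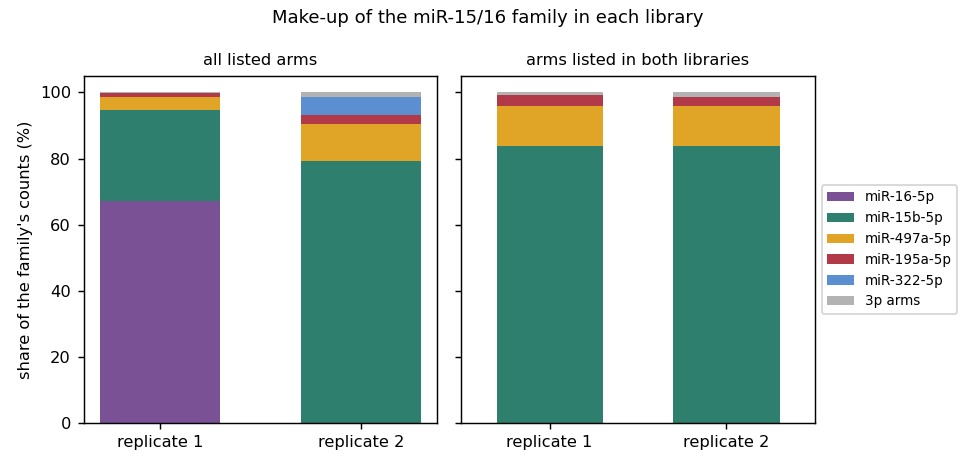
Share of the family's counts (percent) taken by each strand in replicate 1 and replicate 2, over all listed arms (left) and over arms listed in both libraries (right). miR-15b-5p takes 27.4% and 79.2% on the left, and 83.8% in both libraries on the right.

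Ratios of 2 miRNAs within a library need no scaling. The 12 ratios computed were chosen after the levels had been seen and carry intervals without a test. miR-15b-5p stood to miR-497a-5p as 7 to 1 in replicate 1 and 7.03 to 1 in replicate 2, a quotient of 0.996 between the libraries (95% interval 0.697 to 1.42). The quotients of miR-15b-5p and of miR-497a-5p to miR-195a-5p were 0.822 (0.413 to 1.61) and 0.826 (0.386 to 1.75), the wide intervals going with the few counts of miR-195a-5p.

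miR-103-3p and miR-107-3p, which lie in introns of the Pank genes and carry AGCAGCA at bases 1 to 7, 1 base earlier than the family, did not pass the library comparison. miR-107-3p had 563 and 898 counts (log2 ratio 0.02, exact binomial test, adjusted p = 0.882) and miR-103-3p had 279 and 430 (-0.03, adjusted p = 0.926 by the same exact test). miR-15b-5p therefore stood to miR-107-3p as 0.957 to 1 in replicate 1 and 0.571 to 1 in replicate 2, a quotient of 1.68 (95% interval 1.42 to 1.97). The corresponding quotients were 1.62 (1.33 to 1.97) against miR-103-3p and 1.53 (1.33 to 1.77) against miR-351-5p, which itself had a log2 ratio of -0.10 (exact binomial test, adjusted p = 0.102). For miR-497a-5p against miR-107-3p the quotient was 1.68 (1.18 to 2.39). The intervals of miR-195a-5p against miR-103-3p (0.995 to 3.95) and against miR-351-5p (0.959 to 3.69) spanned 1. Of the 9 miRNAs taken as seed relatives, miR-103 and miR-107 were listed, and miR-503, miR-195b, miR-497b, miR-1907, miR-6342, miR-6353 and miR-6419 were not.

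**Figure D5:**
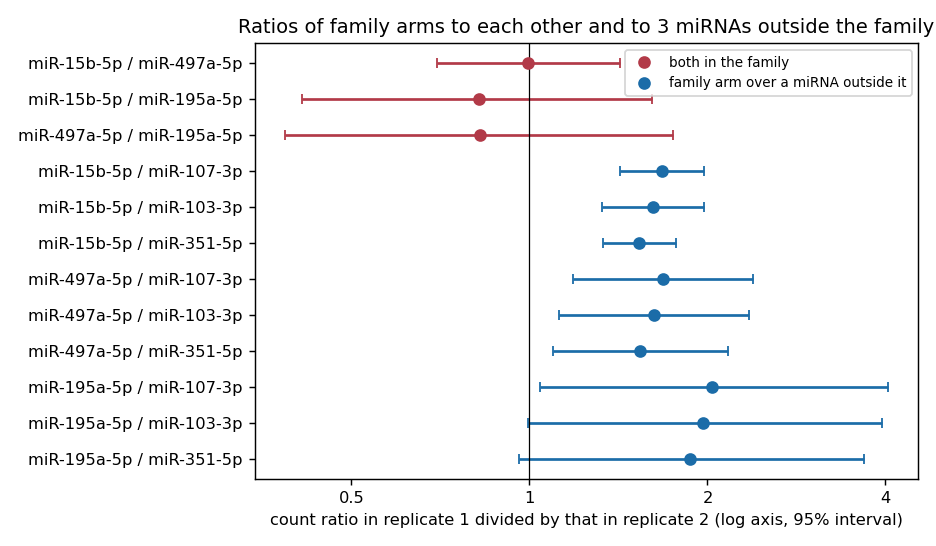
Count ratio of 2 miRNAs in replicate 1 divided by the same ratio in replicate 2 (log axis, 95% exact intervals), for 3 ratios within the family in red and 9 of a family arm to miR-107-3p, miR-103-3p or miR-351-5p in blue. Within the family the quotients are 0.996, 0.822 and 0.826 with intervals that span 1, and against the other miRNAs they range from 1.53 to 2.04, where 2 of the 9 intervals, both of miR-195a-5p, also span 1. The outside miRNAs miR-107-3p, miR-103-3p and miR-351-5p had log2 ratios near 0 (0.02, -0.03 and -0.10), which not all miRNAs outside the family had.

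The miRNAs with the most similar levels were found by Euclidean distance in log2 CPM over the 2 libraries, among 146 miRNAs outside the family that both listed. For miR-15b-5p these were miR-93-5p (428 and 523 counts, distance 0.33), miR-221-3p (424 and 486, distance 0.35) and let-7e-5p (399 and 458, distance 0.46). For miR-497a-5p they were miR-28a-3p (78 and 83 counts, distance 0.19), miR-25-3p (65 and 78, distance 0.26) and miR-146a-5p (91 and 81, distance 0.28). With 2 libraries, this likeness describes levels and no pattern across conditions. In the library comparison miR-93-5p (log2 ratio -0.36), miR-221-3p (-0.45), let-7e-5p (-0.45), miR-28a-3p (-0.56) and miR-146a-5p (-0.82) were also called lower in replicate 2. miR-25-3p (-0.39) did not pass. Being chosen by level in both libraries, these miRNAs tend to share the ratio. A lower level in replicate 2 was thus not particular to the family.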

How the data were processed

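Per the labels' protocols, 1 µg of total liver RNA entered an Illumina small RNA library kit. Per the submitters' processing notes, the tools were cutadapt 1.5, Bowtie 1.0.1 and FastQC 0.11.2, with the build GRCm38 (mm10). Those notes name no locus caller. How loci were filtered, and how reads with several matches were placed, was also not given in the sources used here. In the files, the authors deposited raw read counts per called locus, not normalised, in which 32 and 33 unnamed loci held 5.02% and 2.46% of counts and were kept out of totals and tests.

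Where a name had several loci the highest count was used. File positions were raised by 1 to match RefSeq and GENCODE M21. TMM factors (edgeR 4.0.16) were taken from the tested miRNAs, with a prior count of 0.5 in log2 ratios and a threshold of 0.05, and DESeq2 1.42.0 size factors served as an alternative. No quasi-likelihood test was run, as there is no contrast between groups. Arm shares needed at least 20 counts per library. The library test and the exact intervals were checked on simulated counts with counting error only, the test at library totals and not at TMM sizes. This check leaves out any further spread between libraries. Restricting tests to miRNAs in both libraries replaced the written assumption of a value in each. Members, lists, tests and the naming rule (all members, the fixed lists, and the 3 nearest miRNAs in level for members with at least 100 counts) were chosen with earlier results of these data known. All RefSeq names given were matched by miRNA name.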

Additional observations from a re-analysis of the deposited data

Results flagged for a closer look

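Among the family, miR-16-5p with 1321 counts in replicate 1 and miR-322-5p with 36 counts in replicate 2 stood outside the comparison of libraries, because the other library did not list them. Of the 14 names listed in replicate 1 only, miR-16-5p had the highest count, against a median of 5 counts for those names. Of the 32 names listed in replicate 2 only, miR-322-5p was 6 from the top, against a median of 5.5 counts.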

How the results depend on the processing

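The mean family share over listed arms, with unlisted arms adding nothing, was 0.381%. It ranged from 0.120% to 0.641% with 1 replicate left out, and was 0.162% over members listed in both libraries, 0.362% of all listed counts and 0.380% with loci of a name summed. All of these values except 0.162% rest on different arms in each library, because some arms were listed in 1 library only. They are not read as a level of the family. The number of miRNAs past the library test ranged from 54 to 76 over 6 alternatives, against 58. The split of calls moved from 28 higher and 30 lower to 19 and 45 with library totals. miR-15b-5p (log2 ratios -0.88 to -0.70) and miR-497a-5p (-0.89 to -0.70) were called lower in each of those 6, and miR-195a-5p in 1, with library totals. With unlisted miRNAs as 0, miR-16-5p passed as lower and miR-322-5p as higher in replicate 2. Both calls follow from the 0 put in place of a missing entry, and no difference in level is read from them. The 5p share of Mir195a was 72.0% without replicate 1 and 88.5% without replicate 2. No paired analysis was possible because there is 1 group. The library comparison cannot be made without either replicate. Depth limits the 3p arms, of at most 7 counts.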
